A study of Mus musculus with 6 samples.

Results

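The Trim (tripartite motif) family was followed in forebrain cells of mice at postnatal day 6 with and without a conditional Ep400 allele. Its members were taken by name, as every gene whose symbol is Trim followed by a number and at most 1 letter, which gave 68 of the 48526 genes listed. The family was selected on the fold change of Trim12a in this same comparison, so the value of Trim12a is a description and carries no test here. Of the 68 members, 7 had a mean of 0, 9 were too low for an adjusted p-value and 52 were tested.

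TRIM proteins carry a RING finger, B-boxes and a coiled coil, and most act as E3 ubiquitin ligases, enzymes that attach ubiquitin to other proteins. Their C-terminal domain separates the subfamilies: the PRY/SPRY domain is common among antiviral members, the PHD finger and bromodomain among transcriptional cofactors, the NHL repeats and the COS and FN3 domains among members studied in neurons and muscle. Many PRY/SPRY genes lie in arrays of close copies, and human TRIM5, which binds the capsids of incoming retroviruses, belongs to such an array. The mouse counterpart of that array, on chromosome 7, holds Trim6, Trim34a, Trim5, Trim12a, Trim34b, Trim12c and the Trim30 genes.

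The Ep400 cko group had 3 samples, whose mice carried CNP1::Cre, a conditional Rosa26stopflox-YFP reporter and conditional Ep400. The ctrl group had 3 samples with CNP1::Cre and the same reporter, so Cre was present in both groups. Cnp is an oligodendroglial gene, and the cells, called OPCs (oligodendrocyte precursor cells) in the labels, were sorted by YFP and by the DNA stain Hoechst. All mice had a mixed 129SvJ/C57Bl/6J background. The labels do not give which strain's copy of the chromosome 7 array each mouse carried, so a difference tied to Ep400 and a difference tied to the strain origin of that array cannot be told apart in these groups. Nothing in the labels says whether a sample was 1 animal or a pool.

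The authors' deposited table gives for each gene a mean normalised read count over all libraries, a moderated log2 fold change of Ep400 cko over ctrl, and a Wald test with an adjusted p-value. The means sum to 80407433 normalised reads, and the depth of each library is not listed. Ep400 itself had a mean of 12048 and a log2 fold change of 0.01 ± 0.17 (SE) in the authors' deposited table, a count over the whole gene that cannot show whether the conditional exons were lost. Normalised reads per kb of exon had a median of 9585 over 8 OPC markers, beside 20676 over 6 microglia markers and 7874 over 6 astrocyte markers. The microglia median thus lay well above that of the OPC markers, and the astrocyte median somewhat below it. Medians were lower for other cell types, at 2618 over 6 markers of mural cells and fibroblasts, 1212 over 6 endothelial markers and 120.0 over 6 neuron markers. Of the 8 OPC markers, Cspg5 rose in Ep400 cko and 7 had negative fold changes that did not pass, with a median log2 fold change of -0.37. Over all tested genes 7.64% were called higher and 4.61% lower. Of the astrocyte markers 5 of 6 rose in Ep400 cko, as did 4 of 4 tested red blood cell markers and 2 of 6 neuron markers. In turn 3 of 6 microglia markers, 5 of 6 markers of mural cells and fibroblasts and 1 of 6 endothelial markers fell, all in the authors' deposited table. The part of these other cell types in the Trim values was not tested. In bulk RNA, fewer cells of a type and less RNA per cell cannot be told apart.

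The upstream sequences of 5 genes of the array are shown because they pair the members with the largest fold changes with close copies. Each run is the 250 bases before the annotated start, written 5′ to 3′ on the gene's own strand, the minus strand for all 5, from RefSeq on GRCm38.p6. Capitals mark a match on either strand to 2 copies of GAAA with any 2 bases between them, which reads TTTC, any 2 bases, TTTC on the other strand; these letters are found in the response element of interferon-stimulated genes. The windows are chr7:104315496-104315745 for Trim12a, chr7:104288107-104288356 for Trim5, chr7:104353350-104353599 for Trim12c, chr7:104507850-104508099 for Trim30d and chr7:104465194-104465443 for the first of the annotated starts of Trim30a.
Trim12a: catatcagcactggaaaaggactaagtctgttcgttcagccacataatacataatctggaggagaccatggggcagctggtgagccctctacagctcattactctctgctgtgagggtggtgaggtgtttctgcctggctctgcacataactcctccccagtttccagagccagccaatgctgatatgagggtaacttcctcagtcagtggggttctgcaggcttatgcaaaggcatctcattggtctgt
Trim5: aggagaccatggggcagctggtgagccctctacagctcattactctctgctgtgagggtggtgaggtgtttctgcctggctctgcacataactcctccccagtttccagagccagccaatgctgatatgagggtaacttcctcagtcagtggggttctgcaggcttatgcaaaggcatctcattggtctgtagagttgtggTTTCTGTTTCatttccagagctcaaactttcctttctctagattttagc
Trim12c: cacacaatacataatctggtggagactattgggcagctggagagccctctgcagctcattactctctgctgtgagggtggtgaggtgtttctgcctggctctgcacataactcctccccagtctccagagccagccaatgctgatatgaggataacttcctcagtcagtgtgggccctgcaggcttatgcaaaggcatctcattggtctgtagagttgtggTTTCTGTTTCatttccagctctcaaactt
Trim30d: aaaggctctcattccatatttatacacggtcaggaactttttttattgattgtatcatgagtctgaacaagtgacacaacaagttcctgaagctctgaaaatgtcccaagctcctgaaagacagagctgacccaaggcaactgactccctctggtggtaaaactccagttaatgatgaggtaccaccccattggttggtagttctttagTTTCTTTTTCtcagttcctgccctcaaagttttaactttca
Trim30a: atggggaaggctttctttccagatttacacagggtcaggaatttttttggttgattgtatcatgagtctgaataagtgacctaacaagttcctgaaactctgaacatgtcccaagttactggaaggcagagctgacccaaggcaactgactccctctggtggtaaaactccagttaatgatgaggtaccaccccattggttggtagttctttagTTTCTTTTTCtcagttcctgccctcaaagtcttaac

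Aligned over windows of 300 bases that also hold the first 50 bases after the start, Trim12a and Trim5 shared 241 of 241 overlapping positions, with the annotated starts offset. Trim12a and Trim12c were identical at 247 of 261 aligned positions (94.6%), and Trim30d and Trim30a at 276 of 295 (93.6%). The match in Trim12a began at position 11 after its annotated start and so lies outside the run printed above. The same letters began at position -49 in Trim5 and -29 in Trim12c, and the matches of Trim30d and Trim30a began at -41 and -36, counted from the annotated start. Of all 32851 RefSeq windows of this length 3.44% held the motif on either strand. Of the 67 windows of the 53 members matched in RefSeq, 10 held it, in 9 genes: Trim12a, Trim5, Trim12c, Trim30a, Trim30d, Trim34a, Trim2, Trim21 and Trim26. The motif was thus present in members with large fold changes and in close copies with none that passed, and a match is a description, not a bound site. A second motif, TTCNNNGAA, the core letters that STAT proteins bind, which reads the same on both strands, was found in 8.3% of all windows and in 7 of the 67 member windows, none of them of Trim12a, Trim5, Trim12c, Trim30a or Trim30d.

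Trim12a, a close copy of mouse Trim5, was read almost only in the Ep400 cko libraries. The protein-coding gene (ENSMUSG00000066258) spans chr7:104299894-104315466 on the minus strand in mm10. Its whole reads per library, worked out from the deposited mean, were 85, 378 and 422 in Ep400 cko libraries a, b and c, against 1, 0 and 0 in ctrl libraries a, b and c. All 3 Ep400 cko libraries lay far above the ctrl libraries, and among the Ep400 cko libraries, library a held the fewest reads. The letters a, b and c only name libraries within a group and are not tied to the replicate numbers of the labels. In normalised reads the mean was 302.8 ± 189.0 in Ep400 cko and 0.30 ± 0.51 in ctrl (SD, n = 3 each). The ratio of these means was 1019. Reads pooled over libraries, 885 against 1, gave an exact 95% interval of 167 to 36857 for the ratio. That interval treats every read as independent, so it leaves out the spread between libraries and any PCR copies, and it carries no test. The reads were also solved only among sets with a ratio at least the deposited fold change, so a large ratio was required in advance. The authors' deposited table lists a mean of 151.5 and a log2 fold change of 4.14 ± 0.40 (SE) for Trim12a, the rank of 6 among 20101 tested genes by upward fold change. Fold changes in that table are moderated towards 0, so 4.14 is less than the ratio of the means.

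Trim30d, one of the copies of the Trim30 genes at the other end of the array, also rose. Trim30d (ENSMUSG00000057596, chr7:104470014-104507849, minus strand, mm10) had 65, 223 and 189 reads in Ep400 cko libraries a, b and c, against 13, 29 and 13 in ctrl libraries a, b and c. The groups did not overlap, and Ep400 cko library a was the lowest of its group. That library was also the lowest of its group in 41.2% of 1045 genes with means of 6.1 to 25. The mean was 163.0 ± 85.4 normalised reads in Ep400 cko and 18.1 ± 9.7 in ctrl (SD, n = 3 each), a ratio of 9.03. In the authors' deposited table its log2 fold change was 2.14 ± 0.39 (SE), with a DESeq2 adjusted p of 4.76e-06. An exact two-sided permutation test over the 6 libraries gave p = 0.1, the smallest that 3 against 3 allows.

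**Figure D1:**
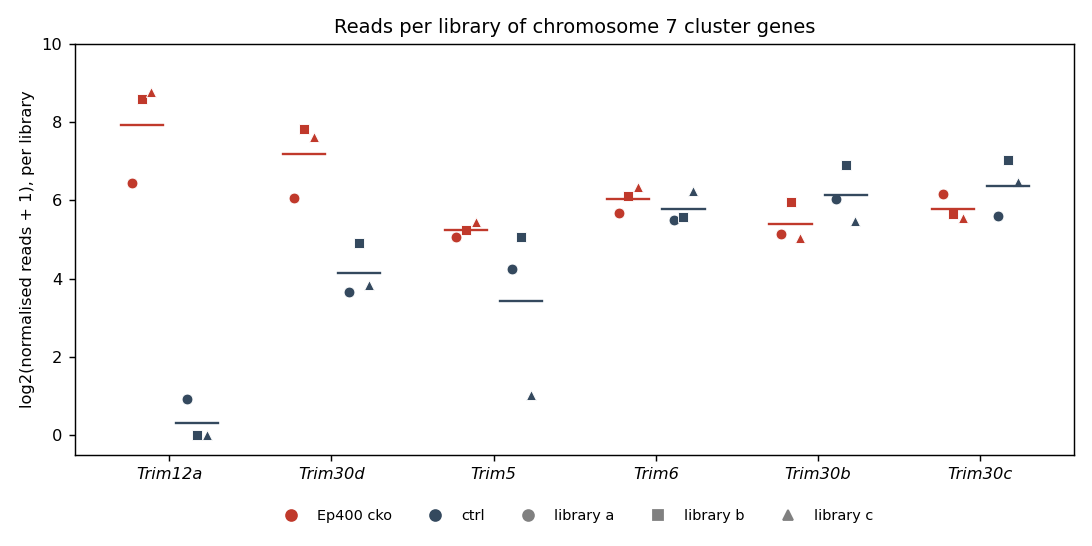
Normalised reads per library, as log2(reads + 1), of the 6 Trim family members of the chromosome 7 array whose reads were worked out. Ep400 cko (red) stands left of ctrl (dark blue), with marker shapes for libraries a, b and c and lines at the mean of the log values. Trim12a and Trim30d separate the groups widely, Trim5 separates them narrowly, and the points of Trim6, Trim30b and Trim30c overlap.

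Trim5, Trim6, Trim30b and Trim30c were read in both groups. Trim5 had 32, 36 and 41 reads in Ep400 cko, against 20, 32 and 1 in ctrl, so the gap between the groups hung on less than 1 normalised read and ctrl library c was far below the rest. Its log2 fold change was 0.53 ± 0.42 (SE; adjusted p = 0.451) in the authors' deposited table. Trim6, at the outer edge of the array, had 49, 67 and 77 reads in Ep400 cko and 50, 46 and 72 in ctrl, and the groups overlapped. Trim30b had 34, 60 and 31 reads in Ep400 cko, against 73, 118 and 42 in ctrl, and the groups overlapped. Trim30c had 69, 48 and 44 reads in Ep400 cko, against 53, 128 and 85 in ctrl, again with overlap. In the authors' deposited table the log2 fold changes of Trim6, Trim30b and Trim30c were 0.21 ± 0.33, -0.59 ± 0.38 and -0.51 ± 0.36 (SE), and none passed the test (adjusted p = 0.744, 0.32 and 0.379).

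For the remaining 4 family members of the array, all with means over 100, reads per library were not worked out. Trim12a, also over 100, was solved only with the help of its deposited fold change. Trim12c, a close copy of Trim12a, had a mean of 759.6 normalised reads and stood at -0.01 ± 0.17 (log2, SE) in the authors' deposited table, with bounds of -0.35 and 0.33 at 95% confidence and an adjusted p of 0.984. Trim30a, which in mouse dampens signalling from Toll-like receptors, had a mean of 834.7 and stood at -0.43 ± 0.19 (SE; adjusted p = 0.107) in that table. It passed as lower in Ep400 cko once the Wald statistic had been corrected for transcript length and GC content (adjusted p = 0.0429). Trim34a and Trim34b, close copies of each other on either side of Trim12a, stood at 0.25 ± 0.28 and -0.57 ± 0.30 (log2, SE) in that table and missed the threshold (adjusted p = 0.625 and 0.208).

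**Figure D2:**
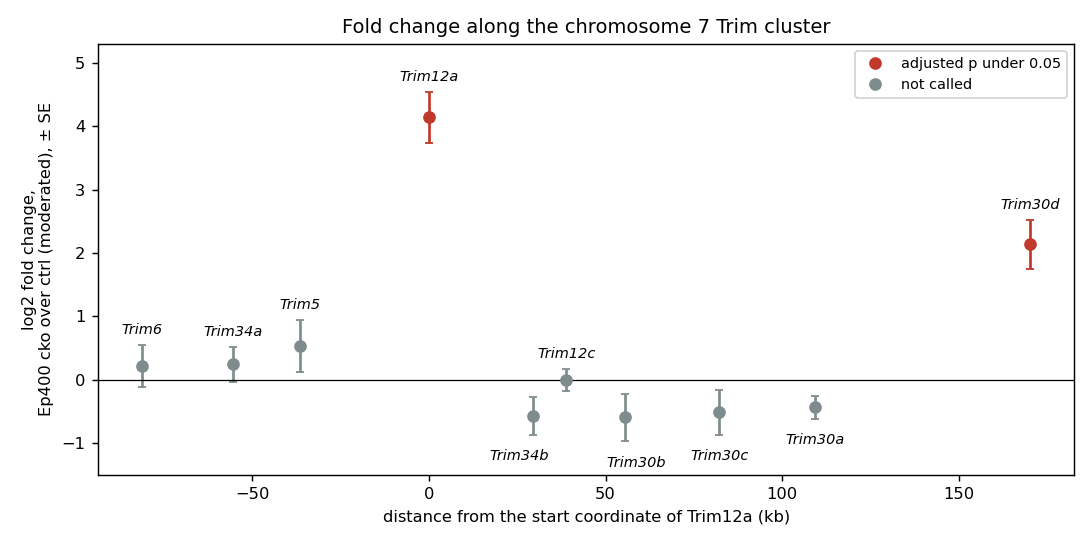
Moderated log2 fold change of Ep400 cko over ctrl ± SE from the authors' deposited table, for the 10 Trim genes within 500 kb of Trim12a, against distance in kb from its start coordinate. Trim12a at 4.14 and Trim30d at 2.14 stand above 8 genes that lie between -0.59 and 0.53, including genes placed between them.

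Close copies can share reads. Of all windows of 50 bases in the annotated transcripts, 89.6% were found in no other gene for Trim12a and 92.5% for Trim30d, against 67% for Trim12c, 63.7% for Trim5, 60.2% for Trim34a and 43.2% for Trim34b. At 100 bases the shares were 97.1% for Trim12a, 95.4% for Trim30d, 91.9% for Trim12c and 88.3% for Trim5. The coding sequence of Trim12a, 891 bases in its longest annotated form against 1491 in Trim5 and Trim12c, was identical to Trim12c at 859 of 891 aligned positions and to Trim5 at 865 of 891. The strand setting of the authors' counting and its treatment of reads that fit several copies are not given in the sources used here. Values within the array are therefore uncertain where copies coincide. An antisense gene, Gm15133, shares 448 bases at the start of Trim12a, and without strand reads in that stretch cannot be assigned to either gene.

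The neighbourhood of Trim12a was then listed gene by gene. Of 75 genes within 500 kb on either side, 51 had a mean of 0, many of them olfactory receptor genes, and 14 were tested. Of these 14, 4 passed at an adjusted p under 0.05, against 12.2% of all tested genes: Trim12a, Trim30d and the beta-globin genes Hbb-bt and Hbb-bs. Without Trim12a, on which the neighbourhood is centred, 3 of 13 passed, and nothing is read from either count. Hbb-bt and Hbb-bs rose by 1.29 ± 0.30 and 0.95 ± 0.35 (log2, SE; adjusted p = 0.000796 and 0.0481) in the authors' deposited table, and the alpha-globin gene Hba-a1, which is not a neighbour, rose by 0.98 ± 0.35 in that table. A pair of low genes of the array was picked after their values were seen. Trim30e-ps1, a transcribed pseudogene beside Trim30d, had 1, 12 and 10 reads in Ep400 cko and 0, 0 and 0 in ctrl, at least 8.06-fold higher when the ctrl group is set at 3 reads in all. Gm15133 had 0, 4 and 3 reads in Ep400 cko libraries a, b and c, against 0, 0 and 0 in ctrl.

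Across the whole family 4 of 52 tested members passed at an adjusted p under 0.05 in the authors' deposited table, all 4 higher in Ep400 cko, and none passed as lower in this DESeq2 test. Over all tested genes 7.64% were called higher and 4.61% lower at that threshold. At an unadjusted p under 0.05, 7 members were higher and 3 lower, beside 14.2% and 11.4% of all tested genes. Since the family was picked with this comparison in view, nothing is read from these counts. The median log2 fold change of the 52 tested members was 0.09, beside -0.0025 for all 20101 tested genes. Of the 52, 30 had positive and 22 negative fold changes, and 41 lay within 0.5 of 0. Without Trim12a, 3 of 51 passed.

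**Figure D3:**
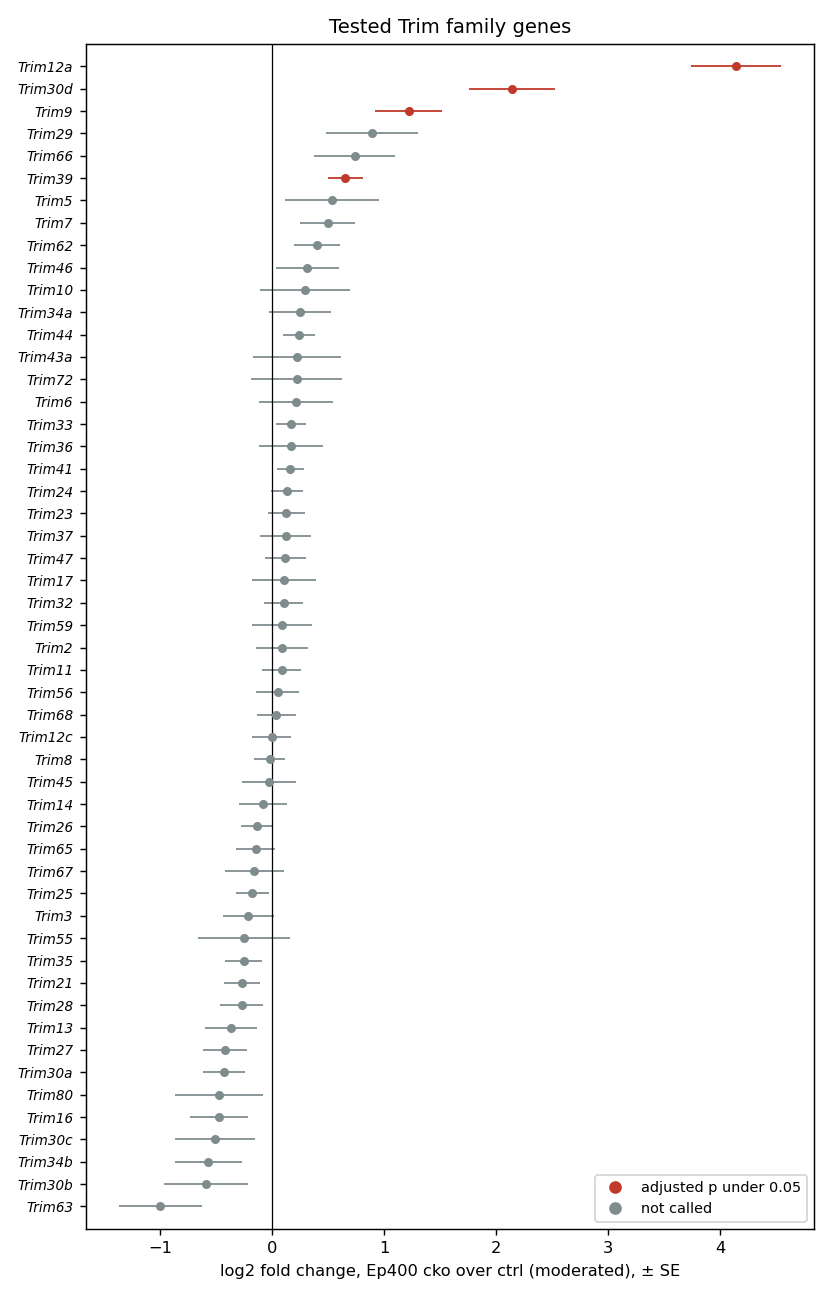
Moderated log2 fold change of Ep400 cko over ctrl ± SE from the authors' deposited table for the 52 tested Trim genes, in order of fold change, with genes at an adjusted p under 0.05 in red. Trim12a, Trim30d, Trim9 and Trim39 are called, and 41 of the 52 genes lie within 0.5 of 0.

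Members with another Trim gene within 200 kb numbered 26, of which 20 were tested, and 42 had none so near, of which 32 were tested. The tested clustered members ranged from -0.59 to 4.14 on the log2 scale around a median of 0.09. The tested members with no Trim gene so near had a median of 0.09 as well and ranged from -1.0 to 1.22. Distance alone sets these classes, so the close copies Trim43a, Trim43b and Trim43c, over 200 kb apart, count among the members standing apart. In each class 2 members passed: Trim12a and Trim30d among the clustered genes, Trim9 and Trim39 among those standing apart. Outside the chromosome 7 array around Trim12a, 10 clustered members were tested, from -0.27 to 0.49, and none passed at a DESeq2 adjusted p under 0.05 (1, Trim7, at an unadjusted p under 0.05). Over all tested genes these shares were 12.2% and 25.6%. The 10 members were Trim21 and Trim68 farther along chromosome 7, Trim26 and Trim10 on chromosome 17, and Trim7, Trim41, Trim11, Trim17, Trim47 and Trim65 on chromosome 11.

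The members studied in neurons and muscle, with COS, FN3 or NHL domains, held 1 called gene. It was 1 of 6 tested members grouped here as having a COS domain, an FN3 domain or both, among them Trim55 and Trim63. None of 3 tested NHL members was called, and the share over all tested genes was 12.2%. Trim9, a ligase that binds the netrin receptor DCC and shapes axon branching, had the highest mean of the family, 54096 normalised reads (3809 per kb), and rose by 1.22 ± 0.30 (SE, log2; adjusted p = 0.00139) in the authors' deposited table. Trim9 rose in the same direction as the astrocyte markers, of which 5 of 6 rose with a median log2 fold change of 1.10. The 6 neuron markers, of which 2 rose, had a median of 0.29, and the 4 tested red blood cell markers, which all rose, 1.11. Medians of the other marker lists were negative. The part of these cell types in the value of Trim9 was not tested. The relatives of Trim9, Trim36, Trim46 and Trim67, stood at 0.17 ± 0.28, 0.31 ± 0.28 and -0.16 ± 0.26 (SE) in the authors' deposited table, and none passed (adjusted p = 0.766, 0.523 and 0.75). Trim2, which ubiquitinates neurofilament light chain, Trim3 and Trim32, all NHL members, stood at 0.09 ± 0.23, -0.21 ± 0.23 and 0.10 ± 0.17 (SE; adjusted p = 0.857, 0.603 and 0.765) in that table. Trim71, the lin-41 homologue of early embryos, had 4, 8 and 3 reads in Ep400 cko and 0, 0 and 4 in ctrl, too few for an adjusted p.

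Trim63, which encodes the muscle ligase MuRF1, was the member nearest to the threshold from outside. It had 26, 46 and 59 reads in Ep400 cko, against 62, 145 and 144 in ctrl. After scaling for library size the groups just overlapped, since the highest Ep400 cko library, at 61.0 normalised reads, passed the lowest ctrl library, at 55.3. Its log2 fold change was -1.0 ± 0.37 (SE; adjusted p = 0.055) in the authors' deposited table, and it passed when only genes with a mean of at least 50 were adjusted together (adjusted p = 0.0469). Its reads were the 1 set, among those that solved its mean, whose ratio was at least the deposited fold change. Values of Trim63 lay in the direction of the mural cell and fibroblast markers, of which 5 of 6 fell with a median log2 fold change of -1.22. Medians of the microglia, OPC and endothelial markers were negative too, at -0.47, -0.37 and -0.35. Those of the astrocyte, neuron and red blood cell markers were positive. The part of these cell types was not tested. Trim55, a further MuRF gene, had 29, 5 and 17 reads in Ep400 cko and 21, 26 and 26 in ctrl, and Trim54 had a mean of 0.

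Of the transcriptional cofactors with a PHD finger and bromodomain, 4 were tested and none passed at a DESeq2 adjusted p under 0.05 (1, Trim66, at an unadjusted p under 0.05). Of all tested genes 12.2% passed and 25.6% had an unadjusted p under 0.05. Trim28 (KAP1), the corepressor that KRAB zinc finger proteins bring to retroelements, had the highest level per length of the family, 7178 normalised reads per kb, and stood at -0.28 ± 0.19 (log2, SE) in the authors' deposited table, with bounds of -0.65 and 0.10 at 95% confidence and an adjusted p of 0.374. Zbtb45 overlaps Trim28 on the other strand, so without strand reads in the stretch they share cannot be assigned to either gene. Trim24 and Trim33, cofactors of nuclear receptors and of SMAD proteins, stood at 0.13 ± 0.14 and 0.17 ± 0.13 (SE; adjusted p = 0.603 and 0.457) in that table. Trim66, at 18.3 reads per kb the lowest of the 4, stood at 0.73 ± 0.36 (SE; adjusted p = 0.17) in the authors' deposited table. Among 19 partners of Trim28 in silencing, such as the methyltransferase gene Setdb1 and the HP1 genes Cbx1, Cbx3 and Cbx5, none passed in the DESeq2 test. An unadjusted p under 0.05 was found for 3 of the 19, beside 25.6% of all tested genes. Their median log2 fold change was -0.0041.

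Trim39, a ligase reported to inhibit the anaphase-promoting complex, was the fourth member called. Trim39 (ENSMUSG00000045409, chr17:36258873-36272247, minus strand, mm10) had a mean of 3799 normalised reads and rose by 0.65 ± 0.16 (SE, log2; adjusted p = 0.00139) in the authors' deposited table. Among the alternatives tried, it was lost only where a log2 fold change of at least 1 was also required. The other Trim genes of chromosome 17 lie over 500 kb away, and of these Trim26, with a mean of 6214, stood at -0.14 ± 0.14 (SE; adjusted p = 0.588) in that table. Trim10 had 24, 17 and 22 reads in Ep400 cko, against 13, 0 and 25 in ctrl, with overlap. Trim31 had 1, 0 and 0 reads in Ep400 cko and 1, 1 and 1 in ctrl, Trim40 had 0, 1 and 0 in Ep400 cko and 4, 0 and 0 in ctrl, and Trim15 had a mean of 0.

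**Figure D4:**
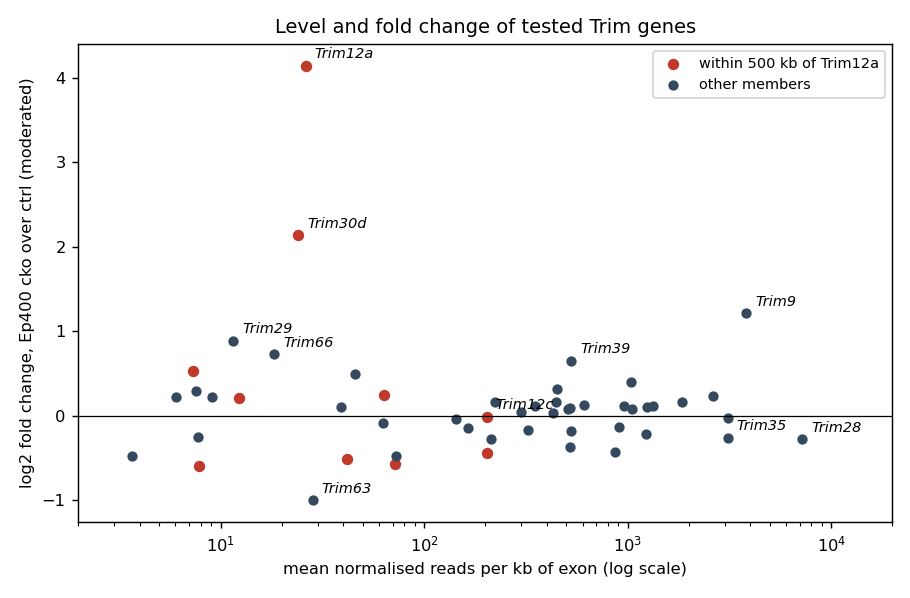
Moderated log2 fold change of Ep400 cko over ctrl against mean normalised reads per kb of exon (log axis) for the 52 tested Trim genes, from the authors' deposited table, with genes within 500 kb of Trim12a in red. Trim12a (26.2 per kb) and Trim30d (24.1 per kb) are low genes, whereas Trim9 (3809 per kb) is among the highest.

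Levels of the tested members spread from 3.69 to 7178 normalised reads per kb, with a median of 261. After Trim28 and Trim9 came Trim8 at 3114 and Trim35 at 3101, which differ by little, then Trim44 at 2627 and Trim41 at 1845 reads per kb. These levels are means over all libraries, so no spread between libraries can be given. Trim8, a regulator of cytokine signalling, Trim35, Trim44, which lacks the RING finger, and Trim41 stood at -0.02 ± 0.14, -0.26 ± 0.17, 0.24 ± 0.15 and 0.16 ± 0.12 (SE; adjusted p = 0.942, 0.339, 0.3 and 0.431) in the authors' deposited table. Trim37, a ligase that limits centriole assembly, stood at 0.12 ± 0.23 (SE; adjusted p = 0.796) with a mean of 6947 in that table. Across the 52 tested members the fold change and the level per kb had a Spearman rho of -0.07, given as a description since all members come from the same libraries.

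Members known for antiviral signalling outside the array did not pass. Trim25, which ubiquitinates the RNA sensor RIG-I, stood at -0.18 ± 0.15 (SE; adjusted p = 0.486) and Trim21, a cytosolic antibody receptor, at -0.27 ± 0.16 (SE; adjusted p = 0.287) in the authors' deposited table. Of 20 genes of the RIG-I and interferon pathway, Traf3 and Tlr3 rose, Ifnar2 fell and 17 did not pass, with a median log2 fold change of -0.10. Over all tested genes 7.64% were called higher and 4.61% lower. The adaptor gene Traf3 and the RNA receptor gene Tlr3 rose by 0.80 ± 0.22 and 0.80 ± 0.28 (SE; adjusted p = 0.00549 and 0.0418), and the interferon receptor gene Ifnar2 fell by 0.50 ± 0.17 (SE; adjusted p = 0.0276) in the authors' deposited table. Of 24 interferon-stimulated genes none rose in the DESeq2 test, 7 fell and 17 did not pass, with a median of -0.36. At an unadjusted p under 0.05, 0 were higher and 10 lower, beside 14.2% and 11.4% of all tested genes. Ifi44 fell by 1.40 ± 0.27 (SE; adjusted p = 2.86e-05) and Ifitm3, which blocks virus entry, by 0.88 ± 0.16 (SE; adjusted p = 1.05e-05) in the authors' deposited table. Oasl2, Bst2 and Gbp2 fell by 0.62 ± 0.19, 0.49 ± 0.16 and 0.66 ± 0.21 (SE; adjusted p = 0.0152, 0.0224 and 0.0225) in that table. These falls and the values of Trim30a lay in the direction of the 6 microglia markers, of which 3 fell with a median of -0.47. Medians of the mural cell and fibroblast, OPC and endothelial markers were negative too, at -1.22, -0.37 and -0.35. Those of the astrocyte, neuron and red blood cell markers were positive, at 1.10, 0.29 and 1.11. The part of these cell types was not tested.

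Reads per library were worked out for 22 members. Of the 5 with means of 6.1 to 25, the groups did not overlap in 1, Trim80, against 19.4% of 1045 genes in that range. Outside that range, where no background was computed, they did not overlap in Trim30d, Trim5, Trim29 and Trim69, nor in Trim12a, whose reads were chosen by requiring a large ratio. Over all 22 members the groups did not overlap in 6. No share over all genes can be set beside that number, and nothing is read from it. Trim29 had 39, 66 and 69 reads in Ep400 cko, against 43, 19 and 5 in ctrl. Its groups separated only after scaling, and narrowly. The lowest Ep400 cko library stood at 39.7 normalised reads and the highest ctrl library at 38.3. In the authors' deposited table it stood at 0.89 ± 0.41 (SE; adjusted p = 0.139). Trim69 had 8, 10 and 8 reads in Ep400 cko, against 6, 3 and 0 in ctrl, and Trim80 had 5, 0 and 6 reads in Ep400 cko, against 8, 15 and 9 in ctrl. Trim58, a ligase of maturing red blood cells, had 0, 6 and 0 reads in Ep400 cko and 0, 0 and 16 in ctrl, so single libraries made up its whole signal. Trim43a had 16, 13 and 14 reads in Ep400 cko, against 6, 22 and 0 in ctrl, with overlap. Its copies Trim43b and Trim43c had means of 0, and 54.2% of the windows of 50 bases in Trim43a were found in no other gene. Trim72 had 18, 30 and 23 reads in Ep400 cko, against 30, 22 and 0 in ctrl. Trim61 had 5, 2 and 11 reads in Ep400 cko and 2, 0 and 3 in ctrl, again with overlap. Trim38 had 4, 0 and 4 reads in Ep400 cko and 1, 0 and 0 in ctrl. Trim60 had 0, 2 and 2 reads in Ep400 cko, against 0, 0 and 0 in ctrl, and Trim75 had a single read, in Ep400 cko library c. No fold change was drawn from these counts.

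The other members with reads lay close to 0 or missed the threshold. Trim27, first described as RET finger protein, stood at -0.42 ± 0.20 (log2, SE; adjusted p = 0.144), and Trim7, which binds glycogenin, at 0.49 ± 0.24 (log2, SE; adjusted p = 0.178) in the authors' deposited table. Trim62 and Trim16 stood at 0.40 ± 0.21 and -0.48 ± 0.26 (log2, SE; adjusted p = 0.208 and 0.223) in that table. Trim13 and Trim59, which carry a transmembrane segment, stood at -0.37 ± 0.23 and 0.09 ± 0.27 (log2, SE; adjusted p = 0.309 and 0.877) in the authors' deposited table. Trim23, which ends in an ARF GTPase domain, Trim45, with a filamin domain, Trim14 and Trim56 lay between -0.09 and 0.12 on the log2 scale, and none passed. The members at a mean of 0 were Trim15, Trim42, Trim43b, Trim43c, Trim50, Trim52 and Trim54.

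Of 9 relatives without a Trim symbol, 7 were tested and 1 passed, beside 12.2% of all tested genes, with a median log2 fold change of 0.36. Mid1, also known as Trim18 and a close relative of Trim9 that binds microtubules, rose by 1.66 ± 0.27 (SE, log2; adjusted p = 1.59e-07) in the authors' deposited table.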

How the data were processed

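Total RNA was sequenced after library preparation with an Illumina stranded kit, per the labels' protocols. The submitters' processing notes name STAR 2.5.1, HTSeq, DESeq2 and mm10. The deposited table lists Ensembl 85 identifiers, per the file headers, and has 0 columns of values per sample. For each gene the authors deposited a mean signal over all 6 libraries, a log2 fold change with its log2 standard error, a score (the Wald statistic), a p-value and a Benjamini-Hochberg adjusted p-value. The header calls the mean one of raw counts, but its steps differ between libraries, so it is given here as a normalised read count. The direction, Ep400 cko over ctrl, rests on the file's name. Genes were called at an adjusted p under 0.05 over the 20101 genes that have one.

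Whole reads per library were worked out from the means, since each mean adds up whole reads after a fixed scaling of each library. The 6 scalings came from genes with a single read, and each library's group from the sign of the authors' fold change of the genes read there alone. Scale factors ran from 0.967 to 1.122. The method was checked on 1045 genes with means of 6.1 to 25. Of these, 1045 had exactly 1 solution, 0 of 262 shifted means had one, and 197 of 197 simulated means were recovered. These checks were not run above a mean of 25, where Trim5, Trim29, Trim30b, Trim6, Trim30c, Trim63, Trim30d and Trim12a lie. For Trim12a and Trim63, sets with a ratio smaller than the deposited fold change were left out, since 687 of 687 solved genes past 0.2 had a ratio at least that large. For Trim12a, 0.0609 solutions were expected by chance and 1 was found. No such expectation was worked out for the other genes above a mean of 25.

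Levels per kb use exon lengths of GENCODE M21 (GRCm38, the same assembly as mm10), which matched all 68 members. Tables were made with pandas 2.3.3 and scipy 1.17.1 and alignments with biopython 1.88. Genes named are the members called, those within 500 kb of Trim12a, the 8 most abundant, the PHD and bromodomain members, the 3 nearest the threshold, the called neighbours of Trim12a and up to 5 called genes of each list. Other genes named were chosen after their values were seen. The members and lists were chosen with earlier results of these data known. P-values measure the spread between these samples, which the labels call biological replicates. Alternatives changed the filter on low genes, the threshold, the cluster distance and the libraries used, and removed length and GC trends.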

Additional observations from a re-analysis of the deposited data

How the results depend on the processing

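The 4 members called higher (Trim12a, Trim30d, Trim9 and Trim39) were 4 with no filter on low genes, over genes whose mean was 50 or more, at an adjusted p under 0.01 and with length and GC trends removed, and 3 when a log2 fold change of at least 1 was also required, where Trim39 was lost. Members called lower were 0 at first, 1 over genes whose mean was 50 or more (Trim63) and 1 with length and GC trends removed (Trim30a). The share of all genes called was 12.2% (2462 genes), and 7.35% with no filter, where more genes were tested. It was 15.6% (2451 genes) over genes whose mean was 50 or more and 10.5% (2093 genes) with length and GC trends removed. At an adjusted p under 0.01 it was 5.95% (1197 genes), and with a log2 fold change of at least 1 it was 4.57% (919 genes). Under the other filter and distances the median of clustered members was 0.0904 to 0.11, and that of members standing apart 0.067 to 0.0946. For Trim12a the log2 ratio of group means plus 1 read was 7.87 (7.51 to 8.31 leaving out each library in turn), beside the moderated 4.14. For Trim30d it was 3.11 (2.79 to 3.60), beside 2.14. The reads of Trim12a and Trim63 were solved only among sets with a ratio at least the deposited fold change. A ratio of that size was thus required in advance, and their ranges are a description. Trim5, Trim29, Trim63, Trim30b, Trim30c and Trim6 kept their direction without each library, and Trim5 lay at 0.55 without ctrl library c and at 1.87 without ctrl library b, beside 1.08 with all. No paired analysis was possible because the deposited table holds no values per named sample. Members under a mean of 6.1 had too few reads for an adjusted p, and those over a mean of 100, other than Trim12a, were not checked by library.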
